A study of Rattus norvegicus with 12 samples.

Results

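The genes described are 9 members of the interleukin 10 and 19 family of cytokines and their receptors: the ligands Il19, Il24 and Il10, and the receptor genes Il10ra, Il10rb, Il20ra, Il20rb, Il22ra1 and Il22ra2. They were taken by symbol from both FPKM tables, where each symbol has a single entry, out of 22132 entries for control and adenine rats and 32623 for sham and UUO rats. Il19 was chosen because it rose from the lowest value of a table, so its levels after ureteral obstruction are given as a description without a test, and the other 8 were included as its relatives and receptors. RNA was measured by poly(A) RNA-seq in whole kidney of 12 male Sprague-Dawley rats, wild type and 8 weeks old when bought, with 3 different rats in each of 4 groups. Control rats received saline and adenine rats received adenine at 220 mg/kg per day by gavage for 3 weeks. Sham rats had the operation without ligation and UUO rats had ligation of the left ureter (unilateral ureteral obstruction), with kidneys taken after 2 weeks. No transgene, deletion or drug was shared by all 4 groups. The UUO operation was done under isoflurane, and the paper describes similar handling of the sham rats. The methods do not say whether the sequenced UUO tissue was the obstructed kidney. Both are rat models of renal fibrosis, and the question asked of each was how gene expression in the treated kidney differed from that in its own untreated group.

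Cytokines of this family bind receptors made of an alpha and a beta chain and signal through JAK kinases, mainly JAK1 and TYK2, to STAT3. IL-10 is a brake on macrophage and dendritic cell activation, and its private chain IL-10RA is found mainly on blood-derived cells, whereas its second chain IL-10RB is broadly expressed and is shared with the receptors for IL-22 and the interferons lambda. IL-19, IL-20 and IL-24 act on epithelia through IL-20RB paired with IL-20RA, and IL-20 and IL-24 also through IL-20RB paired with IL-22RA1, while IL-22RA2 is a secreted decoy that captures IL-22.

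Promoter sequences are shown for the 2 ligand genes with the highest levels in the treated kidneys, for their neighbour Il20, which stayed low, and for Il10rb, the receptor gene with the highest level in every group. They were read from RefSeq (build GRCr8), which gave a promoter for 6 of the 9 members, and run from 250 bases before to 50 bases after the gene start, 5′ to 3′ on the strand of the gene. Capitals mark matches to TTCNNNGAA, the palindrome to which STAT dimers bind. Il19 lies on the minus strand at chr13:44958665-44958964, Il24 on the minus strand at chr13:44910711-44911010, Il20 on the minus strand at chr13:44936844-44937143 and Il10rb on the plus strand at chr11:44132386-44132685.
Il19: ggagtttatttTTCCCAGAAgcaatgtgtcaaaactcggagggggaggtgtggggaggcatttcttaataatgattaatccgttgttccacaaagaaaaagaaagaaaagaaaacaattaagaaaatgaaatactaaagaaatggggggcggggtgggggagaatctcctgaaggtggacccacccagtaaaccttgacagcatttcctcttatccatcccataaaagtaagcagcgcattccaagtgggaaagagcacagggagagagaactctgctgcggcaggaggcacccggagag
Il24: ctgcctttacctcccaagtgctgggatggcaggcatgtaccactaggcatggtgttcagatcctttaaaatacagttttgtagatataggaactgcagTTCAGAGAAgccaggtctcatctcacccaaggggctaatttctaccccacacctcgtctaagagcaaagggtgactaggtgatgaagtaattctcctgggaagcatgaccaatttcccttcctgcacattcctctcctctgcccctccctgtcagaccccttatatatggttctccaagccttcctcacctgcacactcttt
Il20: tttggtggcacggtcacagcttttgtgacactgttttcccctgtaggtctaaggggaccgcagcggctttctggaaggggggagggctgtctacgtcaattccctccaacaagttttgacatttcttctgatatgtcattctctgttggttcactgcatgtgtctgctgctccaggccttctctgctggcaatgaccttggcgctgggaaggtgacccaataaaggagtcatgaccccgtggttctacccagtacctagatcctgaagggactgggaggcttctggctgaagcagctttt
Il10rb: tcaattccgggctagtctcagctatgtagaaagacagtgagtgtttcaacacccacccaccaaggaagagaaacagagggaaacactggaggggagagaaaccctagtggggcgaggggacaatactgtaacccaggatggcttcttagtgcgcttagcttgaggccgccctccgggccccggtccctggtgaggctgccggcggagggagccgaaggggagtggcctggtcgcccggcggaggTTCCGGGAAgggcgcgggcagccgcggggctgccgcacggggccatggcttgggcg

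The STAT palindrome began 239 bases before the start of Il19 as TTCCCAGAA, 152 bases before that of Il24 as TTCAGAGAA and 6 bases before that of Il10rb as TTCCGGGAA. None of the other 3 members with a promoter (Il10ra, Il20rb and Il22ra1) held it, and neither did Il20. Over all 33469 promoters of the same length, 8.87% held the motif. Searched on both strands, the AP-1 motif TGANTCA (7.33% of all promoters), the TATA motif TATAAA (14.2%) and the NF-kB consensus (4.18%) matched none of these 7 promoters. A match of letters is a description of the sequence and does not show binding.

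The samples carried the transcripts of kidney. The summed FPKM (fragments scaled by transcript length and by all mapped fragments) of 6 proximal tubule markers was 1428 to 2107 in control and sham kidneys and 147 to 494 in adenine and UUO kidneys. Not all 6 fell: Slc5a2 and Cubn overlapped between treated and untreated rats in both models. Control rat 2 stood apart from the other controls by a podocyte marker sum of 31.2 FPKM, against 143 and 199, and by a sum of 9 urothelial markers of 9.12 FPKM, against 0.826 and 1.55. The lowest value was 0 in the control and adenine table and 0.0001 in the sham and UUO table, and the 2 tables were normalized separately, so every change was tested within a table. Read depth is unknown, because low FPKM values of different samples stood in no common ratio. FPKM is relative: at the median of the entries tested, the change on the log2 scale was 0.30 after adenine and 0.62 after obstruction, and median-of-ratios scaling brought it to 0.01 and 0.02. In bulk tissue, a higher level can come from more cells of a type or from more RNA per cell, and these cannot be told apart.

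Il19, a ligand made by activated epithelial and myeloid cells, was listed at 0, 0.196 and 0 FPKM in the control rats and at 20.3, 21.8 and 22.2 FPKM in the adenine rats. All 3 adenine values lay close together (21.4 ± 0.972, mean ± SD, n = 3) and far above every control. On the scale of log2(FPKM + 0.1) the difference was 7.23 (SE 0.44, limma adjusted p = 5.27e-05), a size set largely by the pseudocount because control values were near 0: it was 4.40 with a pseudocount of 1 and 9.61 with 0.01. Il19 reached the 0.5 FPKM required for testing (the testing level) in the adenine rats alone. It therefore had to differ, and nothing is read from the p-value. Control rat 2, the library with the most urothelial RNA among controls, was the sole control with a value above 0, and without it the difference was 7.75. In the other table Il19 was at the lowest value of 0.0001 in all 3 sham rats and at 20.9, 32.8 and 34.1 FPKM in the UUO rats, of which the first lay well below the other two. These values chose the gene and were not tested, and no fold is given against a group at the lowest value.

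Il24 is the neighbouring ligand gene, whose product acts on epithelia through the receptor of IL-19 and also through IL-20RB paired with IL-22RA1. It was at 0, 0.234 and 0.05 FPKM in control and at 15.9, 26.5 and 22 FPKM in adenine kidneys. The adenine mean of 21.4 ± 5.34 FPKM (n = 3) equalled that of Il19, with a wider spread between rats. Il24 was upregulated by 6.94 on the log2(FPKM + 0.1) scale (SE 0.46, limma adjusted p = 6.57e-05). In sham kidneys it was at 0.364, 0.0424 and 0.192 FPKM and in UUO kidneys at 47.7, 42.6 and 35.4 FPKM, with no overlap. The UUO mean was 41.9 ± 6.18 FPKM (n = 3) and the upregulation 7.28 (SE 0.42, adjusted p = 2.46e-05). In both models Il24 reached the testing level in the treated rats alone, and so had to differ. With a pseudocount of 1 the 2 log2 fold changes were 4.33 and 5.16. Within a rat, the FPKM of Il19 divided by that of Il24 was 1.28, 0.822 and 1.01 in adenine kidneys and 0.437, 0.769 and 0.963 in UUO kidneys, so the 2 ligands stood near parity after adenine, and Il24 was the higher in each UUO rat.

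Il10, the founding ligand and a product of macrophages and regulatory lymphocytes, was listed at 0 in all 3 control rats and at 2.84, 3.2 and 3.85 FPKM in the adenine rats. It was called upregulated (limma adjusted p = 3.39e-05), and since every control was at 0 no fold is given. Il10 reached the testing level in the adenine rats alone, and so had to differ. In the sham rats it was at the lowest value of 0.0001 throughout, and in UUO rats at 0.309, 0.37 and 0.101 FPKM, below the level of 0.5 FPKM required for testing. Without that requirement the UUO difference had an adjusted p of 0.0213 in limma but did not reach the fold-change threshold used for differentially expressed genes (DEGs), where 23.8% of all entries rose at an adjusted p under 0.05. The Il10 values of the adenine rats were all above those of the UUO rats. The difference of the 2 log2 changes, adenine minus UUO, was 3.32 (SE 0.44, 95% interval 2.36 to 4.29, adjusted p = 0.00106 in a fit of all entries). Since both untreated groups were at their lowest values, this compares 2 treated levels from tables normalized separately, and it ranged from 1.77 with a pseudocount of 1, under the size of 2 that a call needs, to 3.80 with 0.01.

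**Figure D1:**
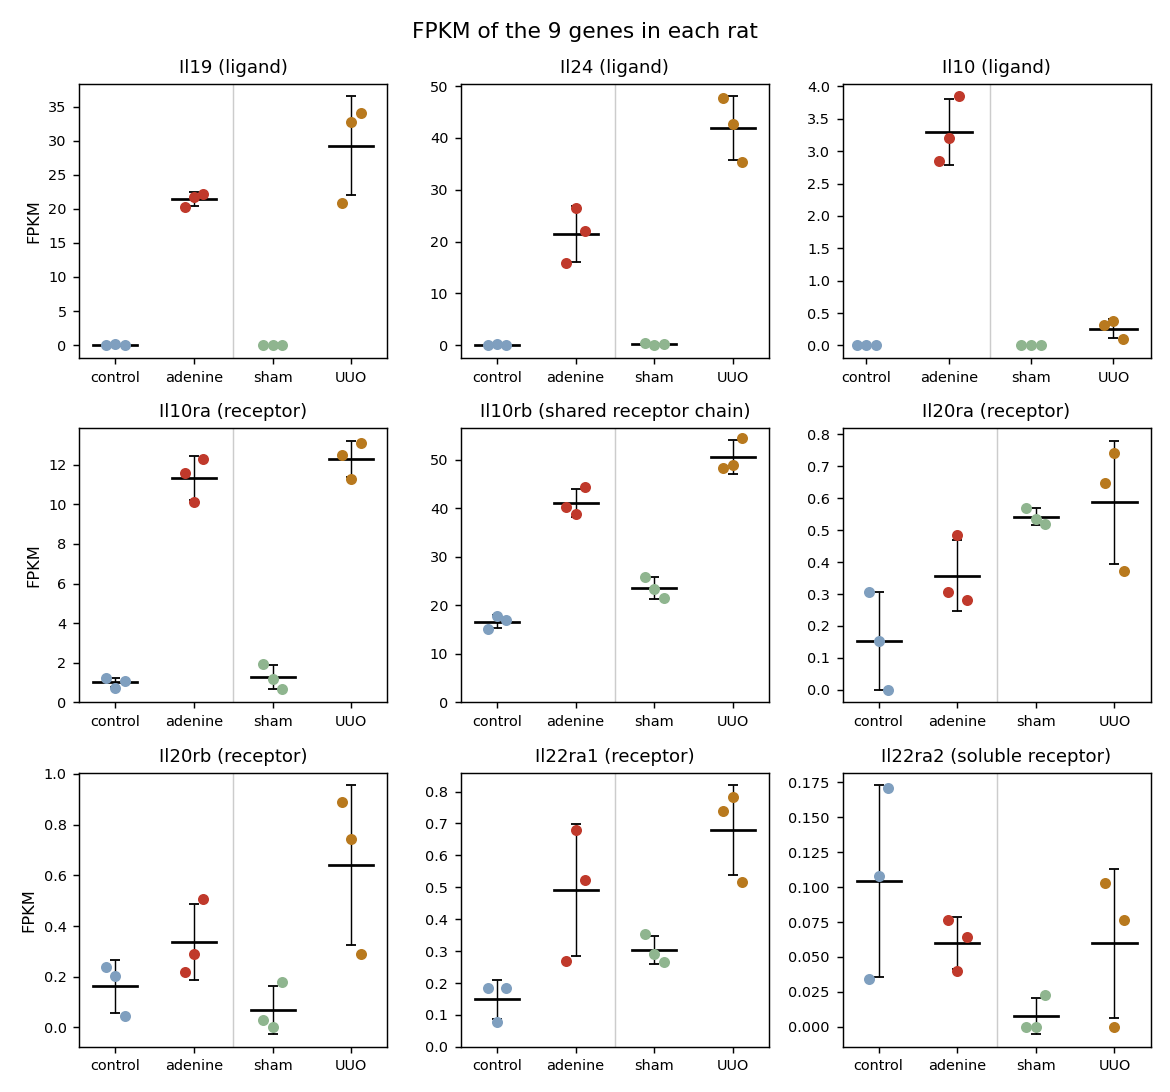
FPKM of the 9 genes in each of the 12 rats, with a panel per gene and a linear axis of its own; points are rats, horizontal lines the mean of 3 and bars the SD, drawn except where all 3 rats were at the lowest value. Il19, Il24, Il10, Il10ra, Il10rb and Il22ra1 separated treated from untreated rats in both models, and Il20rb did so after obstruction alone. Il20ra and Il22ra2 overlapped in both models. The grey line divides tables that were normalized separately.

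Il10ra, the ligand-binding chain for IL-10, was at 1.21, 0.749 and 1.06 FPKM in control and at 11.6, 10.1 and 12.3 FPKM in adenine kidneys. The means were 1.01 ± 0.237 and 11.3 ± 1.13 FPKM (n = 3 each), a ratio of 11.2, and the gene was upregulated by 3.38 on the log2 scale (SE 0.21, limma adjusted p = 5.44e-05). In sham kidneys it was at 1.93, 1.2 and 0.691 FPKM and in UUO kidneys at 12.5, 11.3 and 13.1 FPKM. The means of 1.27 ± 0.624 and 12.3 ± 0.936 FPKM (n = 3 each) stood in a ratio of 9.67, and the log2 fold change was 3.28 (SE 0.33, adjusted p = 1.80e-04). The gene was above the testing level in all 12 rats, so that this change, unlike those of the 3 ligands, did not depend on which group let the gene pass.

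Il10rb, the shared beta chain, was the most abundant of the 9 transcripts in every rat. It was at 15.2, 17.7 and 17 FPKM in control and at 40.2, 38.8 and 44.3 FPKM in adenine kidneys (16.6 ± 1.29 and 41.1 ± 2.87, n = 3 each), and rose by 1.30 on the log2 scale (SE 0.11, limma adjusted p = 1.34e-04). It was at 25.9, 23.4 and 21.4 FPKM in sham and at 48.2, 48.9 and 54.5 FPKM in UUO kidneys (23.6 ± 2.27 and 50.5 ± 3.48, n = 3 each), and rose by 1.10 (SE 0.10, adjusted p = 1.29e-04). No treated value overlapped an untreated one, and neither change reached the log2 fold change of 2 required of a DEG. Under median-of-ratios scaling the rises were 1.01 and 0.50, both still past the adjusted p threshold. The FPKM of Il10rb per FPKM of Il10ra went, without overlap, from 12.5, 23.6 and 16 in control to 3.48, 3.86 and 3.61 in adenine kidneys, and from 13.4, 19.6 and 30.9 in sham to 3.85, 4.33 and 4.16 in UUO kidneys.

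The receptor genes Il20ra, Il20rb, Il22ra1 and Il22ra2 were all below 1 FPKM in every rat, unlike the shared chain Il10rb. Il20ra, an alpha chain for the IL-20 subfamily, was at 0.306, 0.152 and 0 FPKM in control and at 0.306, 0.485 and 0.282 FPKM in adenine kidneys, with overlapping groups. In sham kidneys it was at 0.571, 0.535 and 0.519 FPKM and in UUO kidneys at 0.649, 0.743 and 0.372 FPKM, again overlapping (log2 fold change 0.06, SE 0.32, limma adjusted p = 0.876, and -0.45 with adjusted p = 0.287 under median-of-ratios scaling). Thus no change of Il20ra was detectable in either model at these levels.

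Il20rb, the beta chain for IL-19, IL-20 and IL-24, was at 0.24, 0.202 and 0.0445 FPKM in control and at 0.219, 0.288 and 0.507 FPKM in adenine kidneys, with overlap. It was at 0.0275, 0.0001 and 0.179 FPKM in sham and at 0.891, 0.745 and 0.288 FPKM in UUO kidneys, with all 3 UUO rats above all sham rats. The gene was below the testing level in both tables. Tested without that level, it gave 2.17 in the UUO model (limma adjusted p = 0.0504) and 0.78 in the adenine model (adjusted p = 0.2), and the difference between the models was -1.39 (95% interval -2.98 to 0.20).

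Il22ra1, the epithelial alpha chain that pairs with IL-10RB for IL-22 and with IL-20RB for IL-20 and IL-24, was at 0.183, 0.0765 and 0.186 FPKM in control and at 0.27, 0.679 and 0.523 FPKM in adenine kidneys. All adenine rats were above all controls, but the gene was below the testing level. Without that level its log2 change was 1.22 (limma adjusted p = 0.0439), and 29.1% of all entries rose in that fit. In sham kidneys it was at 0.353, 0.292 and 0.266 FPKM and in UUO kidneys at 0.739, 0.783 and 0.518 FPKM, and it rose by 0.94 (SE 0.30, adjusted p = 0.0259), short of a DEG. Il22ra1 reached the testing level there in the UUO rats alone, and so had to differ. The call also rested on single rats: leaving out sham rat 2, sham rat 3, UUO rat 1 or UUO rat 2 raised the adjusted p to 0.0598, 0.0644, 0.08 and 0.0792, with log2 changes of 0.92, 0.87, 0.88 and 0.84. It was also lost when the replicate number was fitted as a block (adjusted p = 0.0512) and when no testing level was set (adjusted p = 0.0831).

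Il22ra2, the secreted decoy for IL-22, stayed at 0.171 FPKM or less in all 12 rats. It was at 0.0339, 0.108 and 0.171 FPKM in control, 0.0761, 0.0398 and 0.0643 in adenine, 0.0001, 0.0001 and 0.0226 in sham and 0.103, 0.0001 and 0.0761 in UUO kidneys. Its groups overlapped in both models and it was not tested.

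In the adenine model, 5 of the 9 genes reached the testing level and 4 of them were upregulated DEGs (Il19, Il24, Il10 and Il10ra), where 10.7% of all entries tested were upregulated DEGs. All 5 rose at an adjusted p under 0.05, against 39.6% of all entries. Of the 9 genes, 6 had all adenine rats above all controls, against 45.0% of the entries tested, and 3 overlapped. In the UUO model, 6 genes reached the testing level. Il19, whose values here chose it, is left out of the calls. Il24 and Il10ra were upregulated DEGs, against 13.2% of all entries. Il10rb and Il22ra1 also rose at an adjusted p under 0.05, against 56.1% of entries. Of the 9 genes, 7 had all UUO rats above all sham rats, Il19 among them, against 60.0% of entries. In each model 3 of the tested genes passed only through the treated rats (Il19, Il24 and Il10 after adenine, and Il19, Il24 and Il22ra1 after obstruction) and so had to differ. Nothing is read from these counts about the family.

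By level, Il10rb led in every group and Il10ra came next in control and sham kidneys, apart from all others. In adenine kidneys the order was Il10rb, then Il19 and Il24, which did not differ beyond their spread, then Il10ra, then Il10, each apart from the next. In UUO kidneys Il24 stood above Il19 and Il19 above Il10ra without overlap, and Il10 stood among the genes at the bottom of the order, where it overlapped Il22ra2. Il20ra, Il20rb and Il22ra1 overlapped each other in both treated groups.

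The change after adenine and the change after obstruction could be compared for 3 genes tested in both tables, with no control shared between them. The difference, adenine minus UUO, was -0.34 on the log2 scale for Il24 (SE 0.62, 95% interval -1.67 to 1.00, limma-based adjusted p = 0.717), 0.10 for Il10ra (SE 0.39, interval -0.74 to 0.95, adjusted p = 0.869) and 0.20 for Il10rb (SE 0.15, interval -0.11 to 0.52, adjusted p = 0.324). None was called, where 2.88% of the 13486 genes compared were, and the intervals leave room for differences of up to those bounds. Without a testing level, Il10 was called and the other 7 members compared were not, where 3.14% of 19066 genes were.

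Relatives outside the 9 genes were listed in part. Il20, which lies between Il24 and Il19 in the RefSeq order of genes, was at 0 in all controls and at 0.22, 0.217 and 0.256 FPKM in adenine kidneys, and at 0.0001 in all sham and at 0.0416, 0.319 and 0.123 FPKM in UUO kidneys. It was thus far below both of its neighbours in the same rats. Ifnlr1, the private chain of the interferon lambda receptor, which pairs with IL-10RB, was upregulated in both models. It was at 0.397, 1.05 and 0.876 FPKM in control and 5.19, 5.06 and 5.24 FPKM in adenine kidneys (log2 fold change 2.67, SE 0.33, limma adjusted p = 6.30e-04), and at 1.24, 0.575 and 0.56 FPKM in sham and 9.06, 7.18 and 8.12 FPKM in UUO kidneys (3.28, SE 0.31, adjusted p = 1.31e-04). With a pseudocount of 1 the adenine change of Ifnlr1 was 1.81, under the 2 required of a DEG. Il22, Ifnl1 and Ifnl3 were at 0.0001 in all 6 rats of the sham and UUO table.

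In RefSeq the ligand genes stand in the order Fcamr, Pigr, Fcmr, Il24, Il20, Il19, Il10, Mapkapk2, Dyrk3 and Eif2d. Of the non-cytokine neighbours, 2 of 6 tested were upregulated DEGs in each model, Fcamr and Fcmr, where 10.7% of all entries were after adenine and 13.2% after obstruction. At an adjusted p under 0.05, 5 of 6 rose in each, where 39.6% and 56.1% of all entries rose. Fcamr passed the testing level only through the treated rats. The count was 1 in each model with a pseudocount of 1 and under median-of-ratios scaling, and 1 after adenine without control rat 1 or control rat 3. Fcamr, a receptor for IgA and IgM, rose by 4.70 (limma adjusted p = 1.28e-04) after adenine and by 6.01 (adjusted p = 5.73e-05) after obstruction. Fcmr, the IgM receptor of lymphocytes, rose by 2.18 (adjusted p = 0.013) and 2.47 (adjusted p = 8.72e-04), the adenine value being 1.78 without control rat 1 and 1.49 with a pseudocount of 1, and also under 2 without control rat 3 and under median-of-ratios scaling. Pigr, which carries polymeric immunoglobulin across epithelia, rose by 1.16 (adjusted p = 0.0292) after adenine, a call lost under median-of-ratios scaling (0.87, adjusted p = 0.073) and without control rat 1, control rat 2, adenine rat 2 or adenine rat 3 (adjusted p 0.0804, 0.0704, 0.0672 and 0.0974), and gave 0.50 (adjusted p = 0.268) after obstruction, which became 0.95 (adjusted p = 0.00323) without sham rat 1. Mapkapk2, a kinase that stabilises cytokine transcripts, rose by 0.63 (adjusted p = 0.00358) and 0.93 (adjusted p = 2.78e-04), the adenine call being lost under median-of-ratios scaling (0.34, adjusted p = 0.0618). Dyrk3, a kinase, gave 1.46 (adjusted p = 0.0521) after adenine, 2.09 (adjusted p = 0.00182) without control rat 2, and rose by 1.97 (adjusted p = 0.00381) after obstruction. Eif2d, a translation factor, rose by 0.63 (adjusted p = 0.00131) and 0.43 (adjusted p = 0.0145), but the UUO value was -0.17 (adjusted p = 0.336) under median-of-ratios scaling and lost its call without UUO rat 1 (0.37, adjusted p = 0.0524).

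Leukocyte, macrophage and T cell markers also rose in both models. All 4 leukocyte and all 8 macrophage markers were upregulated DEGs in both models, of which Itgam passed the testing level only through the treated rats. Over all entries tested, 10.7% were upregulated DEGs after adenine and 13.2% after obstruction. The summed FPKM of the macrophage markers was 55.2 to 61.5 in control, 1221 to 1675 in adenine, 62.3 to 76.5 in sham and 722 to 1117 in UUO kidneys, and none of these markers was at the lowest value in a whole group. T cell markers passed the DEG thresholds in 4 of 7 tested after adenine and in 7 of 7 after obstruction. Cd5 passed the testing level after adenine only through the treated rats, and the adenine count was 1 without adenine rat 2, with a pseudocount of 1 and under median-of-ratios scaling. Their sums were 9.15 to 15.4, 118 to 124, 14 to 20.8 and 124 to 272 FPKM in control, adenine, sham and UUO kidneys, but Cd4, which rat macrophages also express, gave 79.7 to 104 FPKM of the adenine sums. The 7 markers other than Cd4 summed to 6.07 to 8.02, 19.4 to 38, 5.52 to 8.89 and 50.9 to 151 FPKM in the same order. Per FPKM of the macrophage receptor gene Csf1r, Il10ra was at 0.173, 0.0973 and 0.213 in control and 0.102, 0.0991 and 0.114 in adenine kidneys, and at 0.186, 0.111 and 0.0962 in sham and 0.149, 0.163 and 0.188 in UUO kidneys. Per FPKM of Ptprc, the pan-leukocyte gene, it was at 0.385, 0.277 and 0.415 in control, 0.359, 0.512 and 0.316 in adenine, 0.861, 0.967 and 0.301 in sham and 1, 1.27 and 0.688 in UUO kidneys. In each model these ratios overlapped between treated and untreated rats for both genes, and the part of leukocyte number in the Il10ra values was not tested.

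Urothelial markers followed the models unequally. After obstruction 8 of 8 tested were upregulated DEGs, where 13.2% of all entries were, but 7 passed the testing level only through the UUO rats and had to differ. The sum of the 9 markers was 0.675 to 3.06 FPKM in sham and 168 to 212 FPKM in UUO kidneys. After adenine 0 of 2 tested were called, where 10.7% of all entries were upregulated DEGs. The sum was 0.826 to 9.12 FPKM in control and 1.48 to 8.23 FPKM in adenine kidneys, which overlap. The part of urothelial RNA in the Il19 and Il24 values of either model was not tested. Of the neutrophil markers, 3 of 3 tested were upregulated DEGs after adenine, against 10.7% of all entries. After obstruction 4 of 4 were, against 13.2% of all entries. In each model 2 of the neutrophil markers had passed the testing level only through the treated rats. With a pseudocount of 1 the UUO count was 1. The markers had sums of 1.14 to 2.44, 14 to 26.5, 0.304 to 1.57 and 6.91 to 38 FPKM in control, adenine, sham and UUO kidneys. Mpo, a defining neutrophil gene, was at 1.01, 0 and 0.2 FPKM in control and at 3.3, 0 and 0 FPKM in adenine rats. It was at the lowest value in every sham rat and at 1.07, 0.0165 and 0.0001 FPKM in UUO rats.

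**Figure D2:**
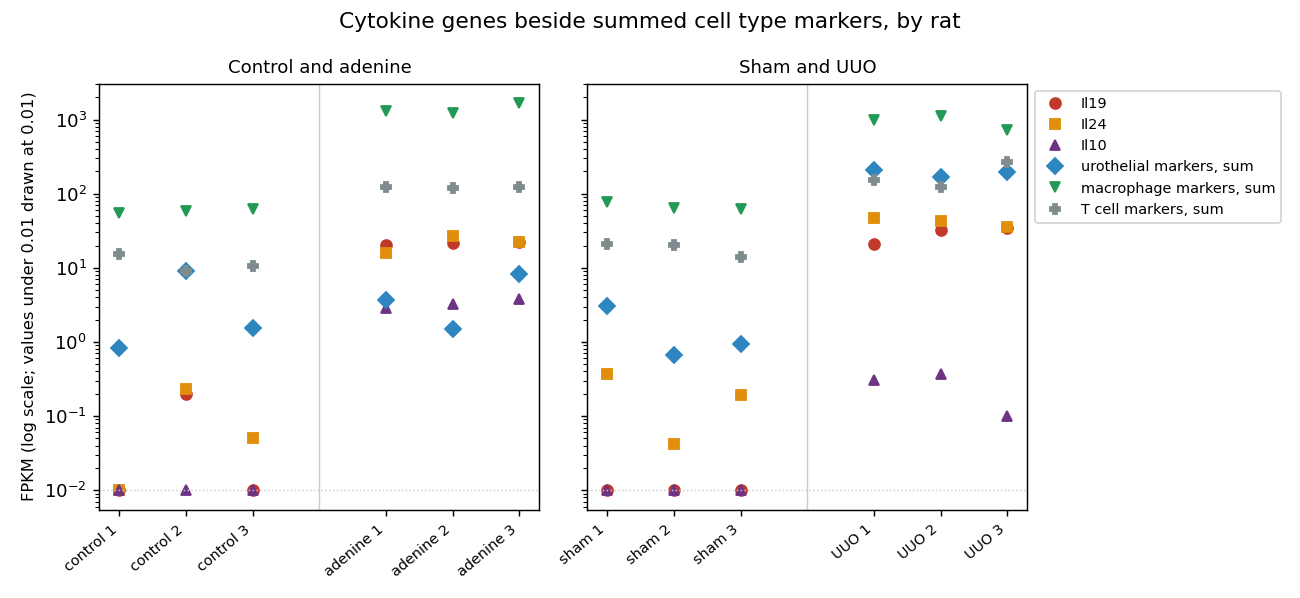
FPKM of Il19, Il24 and Il10 and the summed FPKM of urothelial, macrophage and T cell markers in each rat, on a log axis with values under 0.01 drawn at 0.01 (dotted line). Macrophage sums were higher in every treated rat than in every untreated rat of its table. T cell sums include Cd4, and urothelial sums were 168 to 212 FPKM in UUO rats and overlapped between control and adenine rats.

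The signalling genes downstream of the family were described from a list of 12 kinases, STATs and feedback inhibitors. After adenine, 1 of 12 tested was an upregulated DEG, against 10.7% of all entries tested. At an adjusted p under 0.05, 9 rose, against 39.6% of entries, and 1 fell. The median log2 fold change was 1.00 against 0.30 over all entries. After obstruction, 2 of 11 were upregulated DEGs, against 13.2% of entries. At an adjusted p under 0.05, 10 rose, against 56.1% of entries, and 1 fell, with a median of 1.26 against 0.62. Socs3, the feedback inhibitor induced by STAT3, was at 0.683, 0.633 and 1.3 FPKM in control and 30.8, 31.4 and 32.3 FPKM in adenine kidneys, and at 1.31, 0.782 and 0.929 FPKM in sham and 26.3, 28.9 and 21.4 FPKM in UUO kidneys. It rose by 5.09 (SE 0.26, limma adjusted p = 3.25e-05) and by 4.55 (SE 0.21, adjusted p = 1.44e-05) without any overlap. Of the kinases, Jak1 rose by 1.48 (adjusted p = 7.76e-05) and 1.20 (adjusted p = 7.73e-05). Stat3 and Tyk2, named here for their place in the pathway after their values were known, rose by 1.44 and 0.90 after adenine (adjusted p = 1.40e-04 and 0.00105) and by 1.35 and 1.26 after obstruction (adjusted p = 3.97e-05 and 2.33e-04). Under median-of-ratios scaling the UUO values of Jak1, Stat3 and Tyk2 were 0.60, 0.75 and 0.67.

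The other feedback inhibitors gave a different picture in each model. Cish, an inhibitor induced by STAT5, was at 18.4, 24.9 and 16.7 FPKM in control and 5.26, 5.13 and 5.05 FPKM in adenine kidneys and fell by 1.92 (SE 0.17, limma adjusted p = 1.67e-04), while after obstruction it fell by 0.50 (SE 0.10, adjusted p = 0.00378). Socs2, an inhibitor of growth hormone signalling, was at 2.26, 2.48 and 2.51 FPKM in control and 2.17, 2.65 and 2.38 FPKM in adenine kidneys (log2 fold change -0.01, adjusted p = 0.954), and rose from 1.4, 1.95 and 1.56 to 7.25, 8.35 and 9.89 FPKM after obstruction (2.31, SE 0.19, adjusted p = 8.45e-05). Socs1, an inhibitor of interferon signalling, gave -0.40 (adjusted p = 0.222) after adenine and rose by 1.80 (adjusted p = 0.00441) after obstruction. The difference between the models, adenine minus UUO, was called for Socs2 (-2.32, adjusted p = 9.58e-05) and Socs1 (-2.21, adjusted p = 0.00419), and not for Socs3 (0.54, 95% interval -0.18 to 1.26, adjusted p = 0.25). A call needs a difference of 2, and the calls were lost with a pseudocount of 1 for Socs2 (-1.85) and Socs1 (-1.10), and for Socs1 also under median-of-ratios scaling (-1.95) and without UUO rat 2 (-1.98).

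Genes that IL-10 is known to induce in macrophages were described from a list of 11 that includes Socs3 and macrophage genes such as Cd163. In each model 7 of 11 were upregulated DEGs, against 10.7% of all entries after adenine and 13.2% after obstruction. With a pseudocount of 1 the count was 5 in each model. Under median-of-ratios scaling it was 5 after adenine and 6 after obstruction, and without a testing level 6 after obstruction. Leaving out single rats gave 6 to 8 after adenine and 6 to 7 after obstruction. The medians of the list were 2.26 after adenine and 3.19 after obstruction, against 0.30 and 0.62 over all entries. Cd163 passed the testing level only through the treated rats. At an adjusted p under 0.05 alone, 10 rose and 1 fell after adenine, where 39.6% of entries rose. After obstruction 9 rose, where 56.1% of entries did. The gene that fell was Il4r, a chain of the IL-4 receptor (log2 fold change -0.85, limma adjusted p = 0.00613, named after its value was seen), which gave -0.22 (adjusted p = 0.202) after obstruction. Il1rn, the interleukin 1 receptor antagonist, was at 1.01, 0.831 and 0.706 FPKM in control and 467, 233 and 373 FPKM in adenine kidneys (8.51, SE 0.27, limma adjusted p = 1.89e-05), and at 1.1, 0.97 and 0.835 FPKM in sham and 12.3, 17.1 and 8.5 FPKM in UUO kidneys (3.53, SE 0.27, adjusted p = 6.38e-05). Its difference between the models, adenine minus UUO, was 4.99 (SE 0.38, adjusted p = 7.94e-06). Bcl3 and Sbno2, named after their values were seen, had differences of the other sign, -0.93 (adjusted p = 0.0286) and -0.56 (adjusted p = 0.0469). Cd163, the haemoglobin scavenger receptor of macrophages, rose by 5.97 (adjusted p = 2.81e-05) and 4.33 (adjusted p = 1.84e-04), and Cd14, the endotoxin co-receptor, by 5.28 (adjusted p = 2.74e-05) and 3.30 (adjusted p = 6.90e-05). Several of these genes are also expressed by macrophages without IL-10, and the macrophage sums above were also higher in both treated groups. The part of macrophage number, or of IL-10, in the values of this list was not tested.

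A further list held 12 genes that epithelia raise in response to IL-22 and the IL-20 subfamily. Upregulated DEGs were 5 of 6 tested after adenine and 7 of 7 after obstruction, against 10.7% and 13.2% of all entries. Of these, Reg3b, Reg3g and S100a8 after adenine, and Reg3b, Reg3g, Krt17 and Mmp3 after obstruction, passed the testing level only through the treated rats and had to differ, so nothing is read from the counts about the list. With a pseudocount of 1 the adenine count was 3. Krt16, a stress keratin below the testing level and named after its values were seen, was lower in all adenine rats (0.0273, 0.0309 and 0 FPKM) than in all controls (0.319, 0.152 and 0.181 FPKM), with a log2 change of -1.39 when tested without that level (adjusted p = 0.00721). Lcn2, a siderophore-binding protein of injured tubules, was at 2.68, 6.28 and 2.5 FPKM in control and 399, 538 and 529 FPKM in adenine kidneys (7.08, SE 0.35, limma adjusted p = 2.96e-05), and at 6.45, 8.04 and 3.88 FPKM in sham and 337, 447 and 363 FPKM in UUO kidneys (5.99, SE 0.26, adjusted p = 1.29e-05). Reg3g, an antimicrobial lectin, was at 0 in all controls and at 1.78, 3.85 and 2.79 FPKM in adenine kidneys, and rose by 6.05 after obstruction (adjusted p = 1.62e-05). Reg3b, its relative, rose by 3.73 (adjusted p = 0.00267) and 5.75 (adjusted p = 7.97e-05). S100a8, which is also a neutrophil marker, rose by 4.76 (adjusted p = 7.16e-04) and 3.53 (adjusted p = 0.00562). The receptor chains Il20ra, Il20rb and Il22ra1 were below 1 FPKM in the same kidneys.

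**Figure D3:**
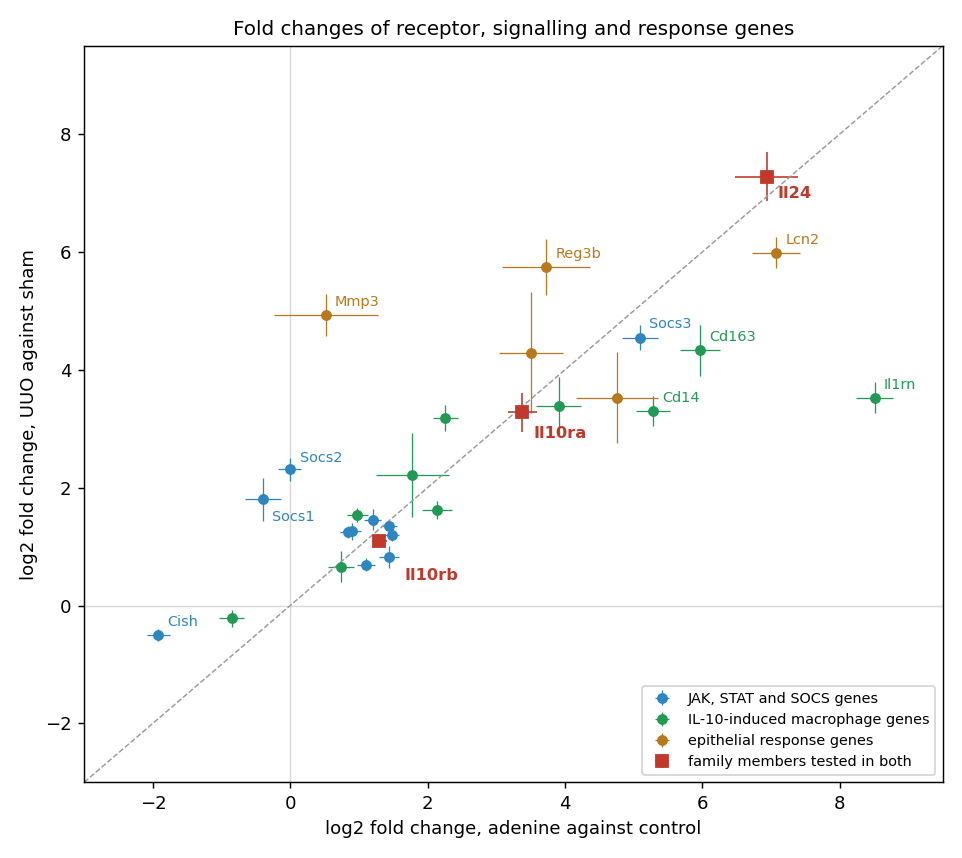
Log2 fold change after adenine (horizontal axis) against log2 fold change after obstruction (vertical axis), both on the log2(FPKM + 0.1) scale, for Il24, Il10ra and Il10rb (squares) and for signalling, IL-10-induced and epithelial response genes tested in both tables; bars are standard errors and the dashed line marks equal change. The 3 squares lie on or near the line, Socs3 lies close to it, Il1rn lies far below it and Socs1, Socs2 and Mmp3 lie above it.

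The genes whose pattern was most like that of a member were named by Pearson's r over the 12 rats, after the mean of the untreated group of the same table was subtracted from each log2(FPKM + 0.1) value. Likeness to Il19 was highest for A3galt2 (r = 0.998) and then for Fblim1, Gon4l, Rgs19 and Prtfdc1 (r = 0.997 each), and Il24 came 65th of 13486 genes (r = 0.991). Likeness to Il24 was highest for Havcr1, the tubular injury marker KIM-1, and for Birc3, Opn3 and Tubb6 (r = 0.994 each). Likeness to Il10ra was highest for Tnfaip8l3 (0.996), Snx20 (0.995), Lrrc25 (0.994), Mnt (0.993) and Rassf5 (0.993). These are descriptions: the rats fall into treated and untreated clusters, and 3242, 3004 and 2857 genes reached r above 0.9 with Il19, Il24 and Il10ra.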

How the data were processed

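Poly(A) RNA of whole kidney from 12 rats was sequenced, with 3 rats per group. The authors deposited FPKM values per gene in 2 tables, made by trimming, mapping and transcript assembly. The submitters' processing notes name cutadapt 1.9, HISAT2 2.0.4, StringTie 1.3.4d, edgeR and DESeq2. The genome build and annotation are not given in the sources used here. All per-sample columns were used, and groups follow the labels.

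Each table was fitted with limma 3.58.1 (lmFit and eBayes with trend, R 4.3.3) on log2(FPKM + 0.1), for entries with at least 0.5 FPKM in at least 3 of 6 samples, with Benjamini-Hochberg adjustment over all of them. A gene was a DEG if its log2 fold change reached 2 in either direction with an adjusted p under 0.05. Differences between models were divided by the root of their summed squared standard errors and adjusted over all genes tested in both tables, with the same 2 thresholds for a call. The fit was tested on simulated data.

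The members, gene lists and tests were chosen with earlier results of these data known. Named genes were the 9 members, the relatives and neighbours in full, at most 3 genes per list and model with the largest change, and the 5 genes most like Il19, Il24 and Il10ra, of which 1 is not reported here. Alternatives were pseudocounts of 1 and 0.01, median-of-ratios scaling, a replicate block, leaving out each rat, no filter and no threshold on the fold change.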

Additional observations from a re-analysis of the deposited data

Results flagged for a closer look

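For Il10, the changes in the 2 models differed by 3.32 on the log2(FPKM + 0.1) scale (adenine minus UUO, adjusted p = 0.00106 without a filter on low values). All control and sham rats were at the lowest value, so the size depends on the pseudocount and compares treated levels from tables normalized separately. With a pseudocount of 1 it was 1.77, under the difference of 2 that a call needs.

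Among the signalling and response genes, the same test gave differences of -2.21 for Socs1 (adjusted p = 0.00419) and -2.32 for Socs2 (adjusted p = 9.58e-05), both with the higher change after obstruction, and of 4.99 for Il1rn (adjusted p = 7.94e-06), with the higher change after adenine. With a pseudocount of 1 the Socs1 and Socs2 differences were -1.10 and -1.85 and no longer calls, and that of Socs1 was also lost under median-of-ratios scaling (-1.95) and without UUO rat 2 (-1.98). Mmp3, a stromal protease on the epithelial response list that was named after its values were seen, differed by -4.40 (adjusted p = 0.00281).

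Of the cell type markers, the macrophage genes Cd68 and Itgam differed by 2.49 (adjusted p = 4.53e-04) and 3.58 (adjusted p = 1.19e-04), both higher after adenine. Itgam had passed the testing level only through the treated rats in each model. No other macrophage marker was called. Csf1r, Mrc1, C1qa, C1qb and C1qc differed by 1.06, 0.75, 0.53, 0.37 and 0.03, and Adgre1 by -0.52. The urothelial genes Upk1a and Upk2 differed by -4.46 (adjusted p = 0.00464) and -6.75 (adjusted p = 6.83e-04), both higher after obstruction. The collecting duct water channel gene Aqp2 differed by 2.38 (adjusted p = 1.31e-04), having fallen more after obstruction. The other collecting duct markers were not called. Scnn1g and Aqp3 differed by 0.85 and 0.51, and Atp6v1g3 went the other way (-1.26). Over all 13486 genes compared, 2.88% were called.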

How the results depend on the processing

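The log2 fold changes of the members kept their direction and side of the threshold in 92 of 98 recomputations over 9 results. The 6 exceptions all concern Il22ra1 after obstruction, which could not be tested under median-of-ratios scaling. Of 53 fold changes of other named genes, 571 of 582 recomputations kept their side, and Eif2d after obstruction reversed to -0.17 under median-of-ratios scaling. That scaling also changed the split of DEGs from 68% to 57% upregulated after adenine and from 75.8% to 55.4% after obstruction. Differences between the models reached an adjusted p under 0.05, but not a size of 2, for Il24 with a pseudocount of 1 (-0.82, adjusted p = 0.0284) and for Il10rb under median-of-ratios scaling (0.51, adjusted p = 0.0375). With a pseudocount of 1 the Il10 difference, recomputed without a filter as an alternative chosen after seeing the data, was 1.77 and no longer a call. The cause was not tested.

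Counts of DEGs moved with the thresholds. Without the fold-change threshold the counts were 4 members after obstruction (2 with it, Il19 left out), 10 and 11 signalling genes after adenine and obstruction (1 and 2 with it, all up; without it Cish fell in each) and 11 IL-10-induced genes after adenine, 10 up and 1 down (7 with it, all up). Signalling genes were 2 after adenine and 1 after obstruction under median-of-ratios scaling, and 1 after obstruction with a pseudocount of 1. Epithelial response genes after adenine were 3 with a pseudocount of 1 (5 with 0.1), T cell markers after adenine 1 (4) and neutrophil markers after obstruction 1 (4). Leaving out single rats gave 1 to 2 signalling genes after adenine, the 2 without control rat 3.

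Same-numbered rats are different animals, and their deviations correlated by -0.077, -0.123 and -0.049 for control and adenine and by 0.05, 0.105 and 0.059 for sham and UUO, where each sample was closest to its own number. With the replicate block 2352 DEGs (2360 without it) and 2609 (2613) were called. Among the members, the block removed the call of Il22ra1 after obstruction alone (0.94, adjusted p = 0.0512). With 3 rats a group and unknown depth, changes of receptor genes below 0.5 FPKM could not be resolved.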
